A study of Mus musculus with 28 samples.

Results

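The comparison described here set mouse embryonic stem cells without Ehmt1 and Zic2, the double knockout (double KO), against wild-type (WT) cells in 2i medium. It holds the 4 libraries of those groups out of 28 in the series, chosen by the genotype and stage that the labels give: Ehmt1/Zic2 KO lines 1 and 2, and 2 WT lines, of which WT line 1 is named with the Ehmt1 samples and WT line 2 with the Zic2 samples. All were made from female RGd2 cells, an embryonic stem cell line that carries a Rex1:GFPd2 reporter with blasticidin resistance, so the WT cells carry the reporter too. The cells grew on gelatin in N2B27 with CHIR99021, an inhibitor of Gsk3, and PD0325901, an inhibitor of Mek, a pair of inhibitors known as 2i. Messenger RNA was sequenced with a TruSeq kit, and reads were counted per gene. The Ehmt1 KO and Zic2 KO lines in 2i and the double KO and WT lines 32 h after 2i withdrawal, with 2 libraries each, are used where they place a double KO value. The labels do not say how the genes were disrupted, nor whether a line is a single clone.

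Ehmt1, also called GLP, is a histone methyltransferase that works as a pair with Ehmt2 (G9a) to place dimethylation on lysine 9 of histone H3, a mark of silenced chromatin. In embryonic stem cells this pair keeps germline genes, some endogenous retroviruses and the genes that mark rare 2-cell-like cells silent. Zic2 is a zinc finger transcription factor that binds enhancers in pluripotent cells and acts later in neural development. In 2i, stem cells stay in the naive state of the early epiblast, and they pass to a formative state once the inhibitors are removed.

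Total counts were 22156926 and 20044955 in double KO lines 1 and 2 and 21655063 and 20091889 in WT lines 1 and 2. Their counts gave at least 1 read for 18007 and 17954 genes in the double KO lines, against 16724 and 16718 genes in the WT lines. The level of a gene is given below in CPM, the read count relative to a TMM-scaled library size. Pluripotency markers were present in all 4 libraries: the 9 markers summed to 4000 and 3920 CPM in the double KO lines and 4720 and 4330 CPM in the WT lines. Fibroblast markers summed to 22.2 and 26.3 CPM in the double KO lines and 13.6 and 15.4 CPM in the WT lines. Blood cell markers summed to 22.9 and 22.8 CPM in the double KO lines and 20 and 22.2 CPM in the WT lines. These sums hide opposite changes, since of 4 blood markers tested 1 rose and 1 fell. Cd3e had 326 reads in the double KO pair and 34 in the WT pair, and Itgam had 272 and 417. These are bulk libraries, in which fewer cells of a type and less RNA per cell cannot be told apart.

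Some lines stood apart along whole chromosomes. Each KO line was set against the mean of the WT lines over genes of at least 10 CPM. On chromosome 11 the median log2 difference was 0.345 in double KO line 1, 0.356 in double KO line 2 and 0.399 in Ehmt1 KO line 1, against -0.048 in Ehmt1 KO line 2. The shift lay beyond the first 35 Mb: over the 653 genes there the medians were 0.40 in both double KO lines, and over the 118 genes before it they were -0.04 and -0.10. On chromosome 16 the median was 0.429 in double KO line 2, against -0.012 in double KO line 1. On the other 18 chromosomes the medians lay between -0.236 and 0.099 in line 1 and between -0.195 and -0.010 in line 2. DNA copy number was not analysed here. Genes of chromosomes 11 and 16 are pointed out below where they are named.

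**Figure D1:**
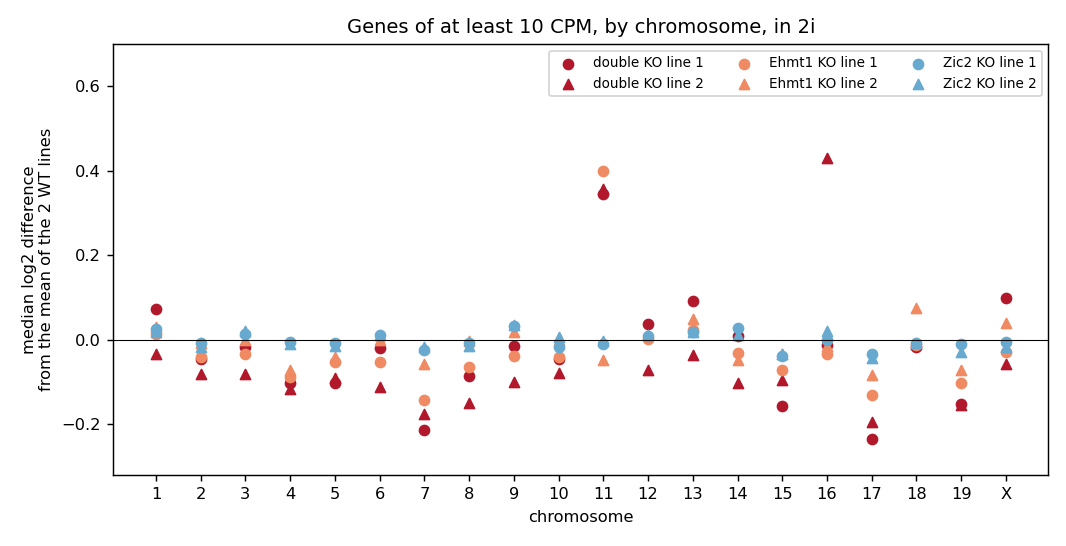
Median log2 difference of each KO line in 2i from the mean of the 2 WT lines, for genes of at least 10 CPM, by chromosome; circles are line 1 and triangles line 2 of each genotype. Both double KO lines and Ehmt1 KO line 1 stand high on chromosome 11 (0.345, 0.356 and 0.399), and double KO line 2 stands high on chromosome 16 (0.429).

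The targeted genes were read first. Ehmt1 (Entrez 77683, GRCm38 chromosome 2, 24790769 to 24919643) had 25.4 and 25.8 CPM in the double KO lines, against 80.3 and 93.4 CPM in the WT lines. The groups did not overlap, and the log2 fold change was -1.76 ± 0.17 (standard error; adjusted p = 9.88e-06, edgeR quasi-likelihood test). Zic2 (Entrez 22772, chromosome 14, 122475384 to 122480328) had 142 CPM in double KO line 1 and 66.5 CPM in line 2, against 111 and 105 CPM in the WT lines. The WT values lay between those of the double KO lines (log2 fold change -0.05 ± 0.39, adjusted p = 0.926, 0.38, adjusted p = 0.506, without line 2, and -0.69, adjusted p = 0.259, without line 1). The Zic2 count therefore does not check that part of the label, and double KO stands for the libraries labelled so. Ehmt2 (Entrez 110147, chromosome 17, 34898463 to 34914073), the partner of Ehmt1, had 98.8 and 144 CPM in the double KO lines, against 174 and 143 CPM in the WT lines. It did not pass the test (-0.38 ± 0.19, adjusted p = 0.135), though it did without double KO line 2 (-0.69, adjusted p = 0.018).

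Of 15667 genes tested, 6166 (39.4%) were called at an adjusted p under 0.05, with 3272 (20.9%) higher and 2894 (18.5%) lower in the double KO. The median log2 fold change over all genes tested was 0. Larger changes were mostly rises: 2000 genes (12.8%) rose and 1004 (6.41%) fell by at least 2-fold. The direction varied with the level. Of 2550 genes under 1 CPM on average, 25.4% rose and 7.25% fell, while of 2699 genes over 100 CPM, 13.4% rose and 22.6% fell. Of 6703 genes with no count in either WT line, 74 reached at least 1 CPM in both double KO lines. The same count was 50 in both Ehmt1 KO lines and 0 in both Zic2 KO lines. Long noncoding RNA genes had 154 of 649 higher and 70 lower. Without WT line 1 the number called was 3855, and from the 4 libraries alone it was 3386.

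**Figure D2:**
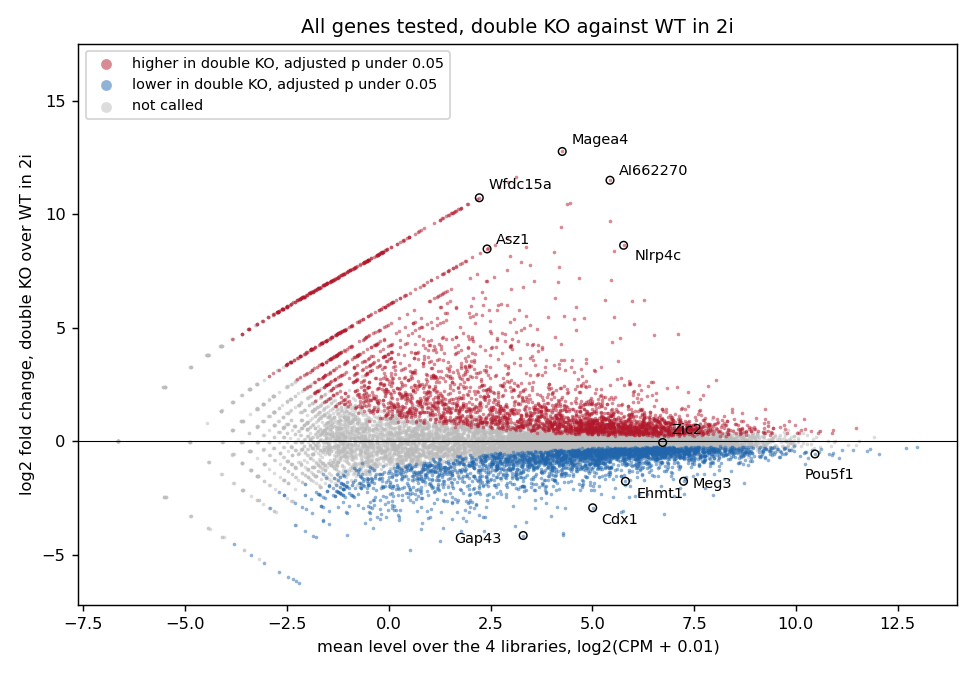
Each point is 1 of the 15667 genes tested, with the mean level over the 4 libraries (log2 scale) against the log2 fold change of double KO over WT in 2i; red and blue mark genes with an adjusted p under 0.05. The slanted rows of points at the left are genes with few or no counts in 1 group, whose fitted fold changes depend on a small added count. Among genes of low level red points outnumber blue ones, with 25.4% higher and 7.25% lower under 1 CPM.

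With predicted genes and multi-copy families such as Magea set aside, the genes with the largest rises were nearly silent in WT cells. The noncoding RNA gene AI662270 (Entrez 100043636, chromosome 11, 83223576 to 83226584) had 118 and 55.4 CPM in the double KO lines, with 1 read in the WT pair. That ratio was 3580, with a 95% counting interval from 643 to 142000. The gene lies on the part of chromosome 11 that stood high, where the median shift was 0.40 on the log2 scale. Wfdc15a, which encodes a small protein with a whey acidic protein domain, had 9.49 and 9.15 CPM in the double KO lines and no read in the WT pair. Against a floor of 3 reads over the WT pair it was at least 127-fold higher (adjusted p = 7.54e-06). Both double KO lines were above both WT lines for these genes, which the rule that picked them required.

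The other 10 of these 12 rises were also unread or nearly unread in WT. Minar2, Dnase2b, Clec2i, Trim43a and Dcaf8l were at least 120-, 106-, 94.2-, 92.9- and 86.5-fold higher. Nt5el, Igbp1b, Nlrp4e and Spink10 were at least 81.9-, 81.3-, 74.9- and 70.7-fold higher. Clec2i encodes a C-type lectin, Trim43a a tripartite motif protein of the early embryo, Nlrp4e a protein of oocytes, and Spink10 a protease inhibitor. The serpin gene Serpina3m differed most between the double KO lines, with 74.8 CPM in line 1 and 7.79 CPM in line 2, against 1 read in the WT pair (adjusted p = 0.00352, and 0.15 by limma-voom with the line as a random block). Dnase2b, a lysosomal nuclease gene, had 13.2 and 2 CPM in the double KO lines (adjusted p = 0.00243, and 0.186 by DESeq2). Spink10 was higher in line 2, with 1.19 CPM in line 1 and 9.39 CPM in line 2.

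By the same rule, the largest falls included genes of muscle and nerve. Gap43, a growth cone protein gene on chromosome 16, had 0.459 and 1.65 CPM in the double KO lines, against at least 18 CPM in both WT lines (log2 fold change -4.15 ± 0.78, adjusted p = 0.00134). The myoblast fusion peptide gene Mymx had 2.25 and 2.19 CPM, against 38.3 and 35.3 CPM in WT (-4.05 ± 0.51). No library of the double KO reached the lower WT value in these genes, a condition of the rule that picked them. Cxcl12, the chemokine ligand of Cxcr4, had 0.55 and 0.438 CPM, against 4.37 and 6.41 CPM in WT (-3.43 ± 0.27, adjusted p = 2.96e-06).

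Other large falls had log2 fold changes between -3.97 and -3.33. Mef2b, a MADS-box transcription factor gene, stood at -3.97 ± 0.51. Sgce, the imprinted gene of epsilon-sarcoglycan, stood at -3.75 ± 0.55 and the cyclic GMP phosphodiesterase gene Pde9a at -3.54 ± 0.43. Cpt1b, the muscle form of carnitine palmitoyltransferase, stood at -3.52 ± 0.61, and at -5.60 without double KO line 2. Plppr2 (-3.39 ± 0.47), Mtmr11 (-3.33 ± 0.29) and Bdh2 (-3.33 ± 0.42) were also among them.

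For these genes the single KO lines gave values side by side with the double KO. The comparisons use the same WT libraries, so their likeness is not independent. The 12 rises had fitted log2 fold changes of 9.91 to 11.50 in the double KO and 7.71 to 10.98 in the Ehmt1 KO. In the Zic2 KO they were 0.00 to 3.32, and none of the 12 passed the test there. Among the falls, Cxcl12 stood at -3.43 in the double KO, -1.63 in the Ehmt1 KO and -0.51 in the Zic2 KO. Sgce stood at -3.75, -1.56 and -1.47, and Mtmr11 at -3.33, -3.13 and 0.12, in the same order. The Zic2 KO values of these 3 genes did not pass the test.

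**Figure D3:**
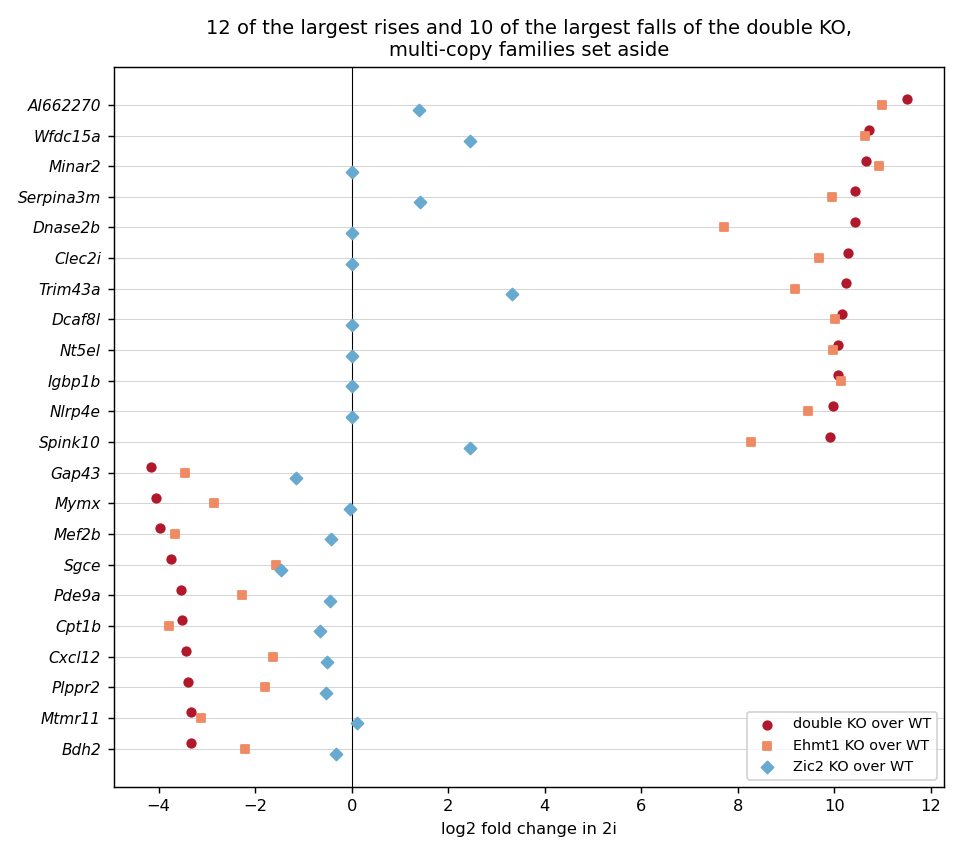
Fitted log2 fold change over WT in 2i of the double KO (circles), Ehmt1 KO (squares) and Zic2 KO (diamonds) for the 12 genes with the largest rises and 10 of those with the largest falls in the double KO, multi-copy families such as Magea set aside. Rises of the double KO lie at 9.91 to 11.50, beside 7.71 to 10.98 in the Ehmt1 KO. Values of genes unread in WT depend on a small added count, and diamonds at 0 among the rises are genes unread in both Zic2 KO and WT.

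Magea genes, X-linked genes of the melanoma antigen family whose expression is normally limited to the testis, were switched on in the double KO. All 6 that passed the filter on low counts rose, and of the other 2 listed, 1 was unread in the 4 libraries. A gene unread in WT passed that filter only because other libraries held reads of it. The 8 genes summed to 89.6 and 89 CPM in the double KO lines and 0 and 0.0501 CPM in the WT lines. Magea4 (Entrez 17140, chromosome X, 72221015 to 72222964) had 41.4 and 35.2 CPM in the double KO lines and no read in the WT pair, at least 525-fold higher (adjusted p = 5.71e-09). Magea8 had 16 and 18.7 CPM and Magea10 had 15.5 and 14.9 CPM, again with no read in the WT pair, at least 236- and 208-fold higher. Magea3, Magea5 and Magea6 had 4.48 to 8.17 CPM in the double KO lines. Both double KO lines had reads of each of these genes. The list's median log2 fold change was 10.78 as fitted and 7.79 with genes unread in WT set at their lower limit. Copies of this family share sequence, so reads could have been split among them.

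Germ cell and piRNA genes rose more often than they fell. Of 30 measured, 15 rose and 2 fell, with a median log2 fold change of 1.42, against 20.9% higher, 18.5% lower and a median of 0 over all genes. Asz1, which piRNA biogenesis in the testis needs, had 11.5 and 9.73 CPM in the double KO lines, against 1 read in the WT pair (adjusted p = 3.88e-06). That ratio was 437, with a counting interval from 78 to 17300. Gtsf1, a partner of Piwi proteins, had 12.4 and 8.66 CPM, against 0.856 and 0.651 CPM in WT (log2 fold change 3.79 ± 0.36). Rpl10l, the testis copy of a ribosomal protein gene, had 149 and 127 CPM, against 23.3 and 28.1 CPM in WT (2.43 ± 0.15, adjusted p = 3.77e-07). Both double KO lines exceeded both WT lines in these genes. Tuba3a and Tuba3b, alpha tubulin genes of the testis, rose by 2.59 ± 0.27 and 3.30 ± 0.33 on the log2 scale. The fallers were the RNA helicase gene Ddx4 (-0.71 ± 0.22, adjusted p = 0.0214) and the piRNA gene Mael (-1.24 ± 0.43, adjusted p = 0.0365). The Ddx4 call ended without WT line 2 (-0.33, adjusted p = 0.264) or double KO line 1 (-0.49, adjusted p = 0.172). The Mael call ended without double KO line 1 (-0.68, adjusted p = 0.255) or either WT line, while Mael stood at -2.15 without double KO line 2.

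Some germ cell genes also moved in the Zic2 KO. Dazl, an RNA-binding protein gene of germ cells, had 57.8 and 38 CPM in the double KO lines, 21.4 and 19.8 CPM in the Ehmt1 KO lines, 26.1 and 30.9 CPM in the Zic2 KO lines and 6.51 and 11.4 CPM in the WT lines. Its log2 fold changes against WT were 2.42 ± 0.25, 1.20 and 1.67 in that order of KO groups, and each passed the test. Sohlh2, a transcription factor gene of early germ cells, had 43.1 and 56.9 CPM in the double KO lines and 18 and 18.2 CPM in the WT lines, with log2 fold changes of 1.47 ± 0.20 in the double KO, 1.41 in the Ehmt1 KO and 1.52 in the Zic2 KO. Tex19.1, a transposon defence gene on chromosome 11, had 173 and 357 CPM in the double KO lines, against 62.3 and 56.1 CPM in the WT lines (2.16 ± 0.54, adjusted p = 0.00734). Its call ended without double KO line 2 (1.54, adjusted p = 0.0571), WT line 1 (2.24, adjusted p = 0.0529) or WT line 2 (2.11, adjusted p = 0.05).

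Among 26 meiosis genes measured, 10 rose and 2 fell, with a median log2 fold change of 0.63; 6 rose without WT line 1. Of the meiosis list 46.2% were called, against 39.4% over all genes, of which 20.9% rose and 18.5% fell. Smc1b, the meiotic cohesin subunit, had 42.9 and 16.4 CPM in the double KO lines, against 0.571 and 0.751 CPM in the WT lines (5.48 ± 0.57, adjusted p = 1.97e-05). Terb2, which ties meiotic telomeres to the nuclear envelope, had 7.61 and 6.67 CPM, against 0.143 and 0.901 CPM in WT (3.78 ± 0.49). Hormad1, a protein of meiotic chromosome axes, had 24.9 and 13.8 CPM, against 5.13 and 7.06 CPM in WT (1.67 ± 0.26, adjusted p = 0.000387). The fallers were the meiotic recombinase gene Dmc1, with 2.11 and 2.14 CPM in the double KO lines, against 10.2 and 10.6 CPM in WT (-2.29 ± 0.18), and Sycp3 of the synaptonemal complex (-1.15 ± 0.27). Stra8, which opens the meiotic programme, separated the double KO lines. It had 27.9 CPM in line 1 and 1.80 CPM in line 2, against 0.618 and 1.05 CPM in the WT lines, 23.4 and 24.5 CPM in the Zic2 KO lines and 0.826 and 0.369 CPM in the Ehmt1 KO lines. Its double KO call (4.15 ± 1.05, adjusted p = 0.00761) ended without double KO line 1 (1.12, adjusted p = 0.369) or WT line 1 (3.81, adjusted p = 0.0762), from the 4 libraries alone (4.17, adjusted p = 0.0663) and by limma-voom with the line as a random block (3.14, adjusted p = 0.0942).

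The 250 bases upstream of the annotated start of 5 of these risen genes are shown because the genes were silent or low in WT and differ in CpG content, the site that DNA methylation uses. They are RefSeq sequences of GRCm38.p6, 5′ to 3′ on the gene's strand, with CpG dinucleotides in capitals. Magea10 (chrX:72386859-72387108, minus strand) and Clec2i (chr6:128887337-128887586, plus strand) had no read in the WT pair. Asz1 (chr6:18109062-18109311, minus strand), Smc1b (chr15:85131958-85132207, minus strand) and Hormad1 (chr3:95559427-95559676, plus strand) are the germ cell and meiosis genes described above.
Magea10: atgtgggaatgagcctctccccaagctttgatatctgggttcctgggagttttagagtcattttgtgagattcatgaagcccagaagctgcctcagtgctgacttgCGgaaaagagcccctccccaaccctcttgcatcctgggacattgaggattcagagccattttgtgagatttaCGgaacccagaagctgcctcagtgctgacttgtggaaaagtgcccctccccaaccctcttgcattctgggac
Clec2i: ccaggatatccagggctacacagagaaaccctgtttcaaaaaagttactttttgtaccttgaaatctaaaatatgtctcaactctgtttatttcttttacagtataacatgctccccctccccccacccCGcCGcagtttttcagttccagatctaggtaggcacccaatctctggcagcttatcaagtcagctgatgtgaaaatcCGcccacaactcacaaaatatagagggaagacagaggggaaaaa
Asz1: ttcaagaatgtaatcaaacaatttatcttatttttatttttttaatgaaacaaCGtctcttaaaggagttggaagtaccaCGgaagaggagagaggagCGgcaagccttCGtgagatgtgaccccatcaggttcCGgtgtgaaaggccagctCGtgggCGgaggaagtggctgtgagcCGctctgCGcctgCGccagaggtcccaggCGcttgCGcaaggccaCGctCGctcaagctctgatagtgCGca
Smc1b: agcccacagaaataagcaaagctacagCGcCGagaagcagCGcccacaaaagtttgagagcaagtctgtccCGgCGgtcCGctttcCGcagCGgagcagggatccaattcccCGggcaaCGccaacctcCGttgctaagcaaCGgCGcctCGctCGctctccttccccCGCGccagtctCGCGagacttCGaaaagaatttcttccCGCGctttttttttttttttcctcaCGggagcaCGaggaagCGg
Hormad1: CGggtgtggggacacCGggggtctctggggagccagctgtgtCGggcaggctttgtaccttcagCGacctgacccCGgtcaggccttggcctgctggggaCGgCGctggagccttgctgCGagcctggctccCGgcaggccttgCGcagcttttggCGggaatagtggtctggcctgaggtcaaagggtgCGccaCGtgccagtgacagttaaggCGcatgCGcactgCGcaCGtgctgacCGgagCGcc

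Magea10 and Clec2i held 2 and 3 CpG dinucleotides in these windows, and Asz1, Smc1b and Hormad1 held 15, 25 and 19. Over 27025 promoters of that length the median was 6, with quartiles of 2 and 16. The E-box CACGTG, read alike on both strands, occurred 2 times upstream of Hormad1 and in 6.05% of all these promoters. TCCCGC, the core of the site of the repressor E2f6, was searched on both strands. It occurred 1 time each upstream of Smc1b and Hormad1 and in 16.9% of all promoters. No match overlapped another, and a match is only a match of letters.

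Genes of 2-cell-like cells, a rare state of stem cell cultures that resembles the 2-cell embryo, rose nearly throughout. Of 17 measured, 15 rose and 1 fell, with a median log2 fold change of 3.50. That is 94.1% called, against 39.4% over all genes, of which 20.9% rose. The median was 2.29 without double KO line 2 and 4.36 without WT line 1. Tested directly, 6 of the 17 differed between the double KO and the Zic2 KO, and 0 between the double KO and the Ehmt1 KO. The deubiquitinase genes Usp17la and Usp17lb had 15.1 and 33.2 CPM and 24.6 and 68.5 CPM in the double KO lines, against 0.903 and 0.651 CPM and 2.23 and 0.801 CPM in the WT lines. Zscan4d, a defining gene of that state, had 4.26 and 9.93 CPM in the double KO lines, against 0.951 and 0.501 CPM in the WT lines (3.27 ± 0.47, adjusted p = 0.000199). Double KO line 2 was the higher one in each of these 3 genes. The faller was Dppa4, a chromatin protein gene of pluripotent cells named after its value was seen, with 61.8 and 83.2 CPM in the double KO lines, against 113 and 98.2 CPM in WT (-0.54 ± 0.16, adjusted p = 0.0165). Dppa4 lies on chromosome 16, and its call ended without double KO line 1 (-0.33, adjusted p = 0.139), without WT line 1 (-0.44, adjusted p = 0.111) and from the 4 libraries alone (-0.50, adjusted p = 0.105). Zscan4 and Usp17l genes are near-identical copies, so their single values are uncertain.

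The naive network stayed expressed, with a few genes higher. Of 20 naive genes 7 rose and 13 were not called (35% called, against 39.4% over all genes), with a median log2 fold change of 0.25. The adhesion gene Jam2, on chromosome 16, had 369 and 308 CPM in the double KO lines, against 106 and 57.5 CPM in the WT lines (2.06 ± 0.26, adjusted p = 7.25e-05). Dppa3, a factor of oocytes and the early embryo, differed between the lines, with 231 CPM in line 1 and 74.6 CPM in line 2, against 3.14 and 0.852 CPM in WT (6.24 ± 1.22, adjusted p = 0.0018). Prdm14, a transcription factor gene of the naive state and of germ cells, had 51.4 and 49.9 CPM, against 25.4 and 26.6 CPM in WT (0.96 ± 0.22). Socs3, a Stat3 target on chromosome 11, rose by 1.74 ± 0.32, Fbxo15 by 0.90 ± 0.13 and the nuclear receptor gene Nr5a2 by 0.69 ± 0.15. Klf4 (0.50 ± 0.16, adjusted p = 0.0274) lost its call without WT line 1 (0.55, adjusted p = 0.0745), WT line 2 (0.46, adjusted p = 0.0966) or double KO line 1 (0.45, adjusted p = 0.0995). Nanog had 811 and 749 CPM in the double KO lines and 641 and 659 CPM in the WT lines, and Esrrb had 596 and 671 CPM and 788 and 757 CPM. Neither passed the test, with adjusted p of 0.201 and 0.0967.

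The 12 genes of general pluripotency had 4 higher and 3 lower in the double KO, and 2 higher without WT line 1. Of these 12 genes 58.3% were called, against 39.4% over all genes, of which 20.9% rose and 18.5% fell. Lin28a, an RNA-binding protein gene that rises as cells leave the naive state, had 134 and 157 CPM in the double KO lines, against 453 and 466 CPM in the WT lines (-1.66 ± 0.13, adjusted p = 2.35e-06). Pou5f1, which encodes Oct4, had 1080 and 1214 CPM, against 1888 and 1490 CPM in WT (-0.56 ± 0.11, adjusted p = 0.0022, and 0.057 from the 4 libraries alone), and Sox2 had 399 and 363 CPM, against 232 and 235 CPM in WT (0.71 ± 0.17, adjusted p = 0.00546). The double KO lines lay below WT for the first pair and above it for Sox2. Of 14 formative genes 4 rose and 3 fell, with a median of -0.24; 2 rose without double KO line 2, and 1 fell without double KO line 1 or WT line 2. Called were 50% of the formative list, against 39.4% over all genes. Otx2, a driver of the formative state, had 7.29 and 8.76 CPM in the double KO lines, against 15.9 and 12.9 CPM in WT (-0.85 ± 0.17, adjusted p = 0.00226). The transcription factor gene Grhl2 rose by 1.67 ± 0.34 on the log2 scale, and by 1.07 without double KO line 2. Dnmt3b, a de novo DNA methyltransferase gene, stood at 0.69 ± 0.18 (adjusted p = 0.00899), a call that ended without double KO line 2 (0.32, adjusted p = 0.121) or WT line 2 (0.66, adjusted p = 0.0507).

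**Figure D4:**
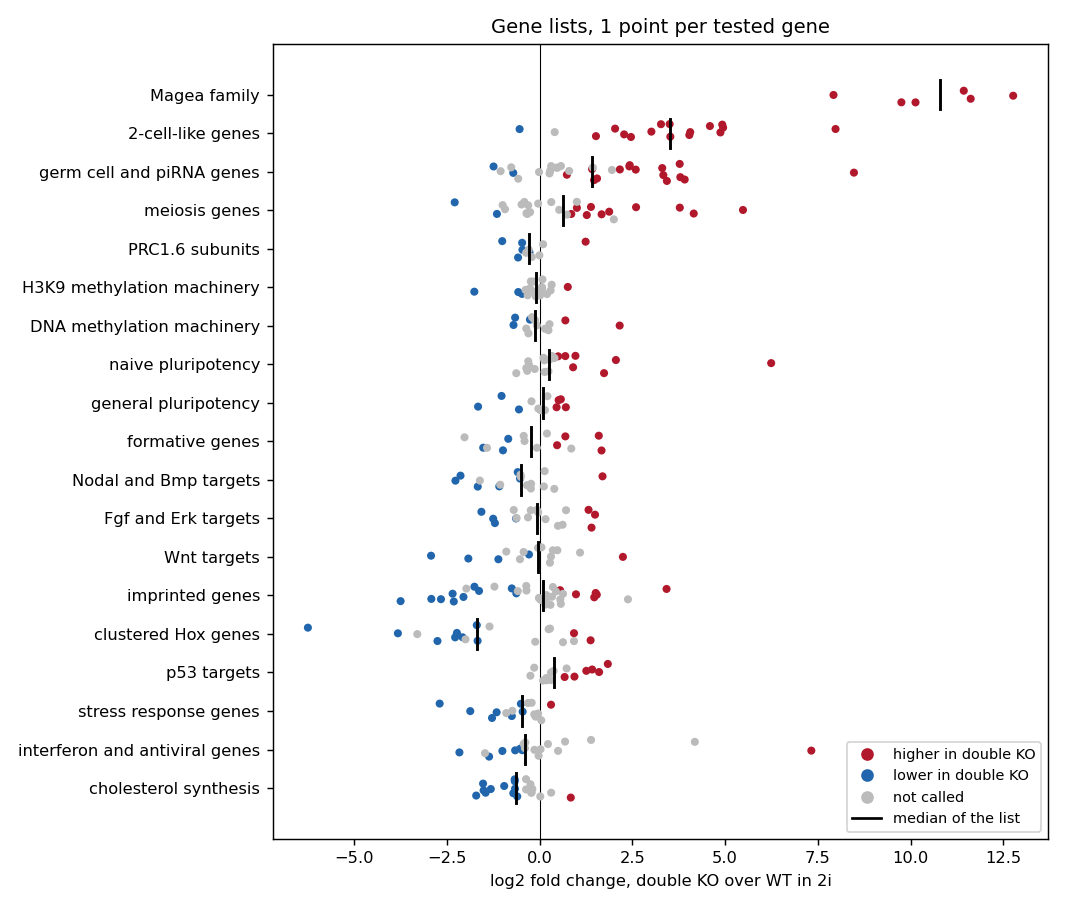
Log2 fold change of double KO over WT in 2i for the tested members of 19 gene lists, 1 point per gene; red and blue points have an adjusted p under 0.05, and black bars are list medians. The Magea and 2-cell-like lists lie highest, with medians of 10.78 and 3.50, and the clustered Hox list lies lowest at -1.68.

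Genes of the silencing machinery were read next. Of the histone H3 lysine 9 methylation list 20% were called and of the DNA methylation list 35.7%, against 39.4% over all genes. Of 20 genes of histone H3 lysine 9 methylation, 1 rose and 3 fell, with a median of -0.11; 6 fell without double KO line 1 and 3 rose without double KO line 2. Besides Ehmt1, the demethylase genes Kdm4a (-0.58 ± 0.12, adjusted p = 0.00301) and Kdm4b (-0.48 ± 0.10, adjusted p = 0.00218) fell; from the 4 libraries alone their adjusted p was 0.0503 and 0.109. Atf7ip, a partner of the methyltransferase Setdb1, had 148 and 108 CPM in the double KO lines, against 68.8 and 82.5 CPM in WT (0.76 ± 0.15, adjusted p = 0.00169). Of 14 DNA methylation genes 2 rose and 3 fell, and 1 fell without double KO line 1 or WT line 1. Tet3, which oxidises methylated cytosine, had 27.2 and 25.9 CPM in the double KO lines, against 4.33 and 7.61 CPM in WT (2.16 ± 0.23, adjusted p = 2.04e-05). The methyl-CpG binding protein gene Mbd2 fell by 0.71 ± 0.16 (adjusted p = 0.0541 from the 4 libraries alone). Dnmt1 and Uhrf1, which maintain methylation, did not pass the test (-0.20 ± 0.12 and -0.15 ± 0.09). Of 11 genes of PRC1.6, a Polycomb complex that silences germline genes, 1 rose and 5 fell; 3 fell without double KO line 1 or 2, 2 without WT line 2 and 1 from the 4 libraries alone. Of the PRC1.6 list 54.5% were called, against 39.4% over all genes. The complex's DNA-binding partner Tfdp1 had 99.5 and 139 CPM, against 239 and 242 CPM in WT (-1.01 ± 0.18, adjusted p = 0.000982). Wdr5 fell by 0.46 ± 0.11 and E2f6 by 0.47 ± 0.13 (adjusted p = 0.0114), while Yaf2 rose by 1.24 ± 0.22. The Wdr5 call ended from the 4 libraries alone (-0.43, adjusted p = 0.105). The E2f6 call ended there too (-0.44, adjusted p = 0.142), and without WT line 2 (-0.35, adjusted p = 0.0847) or double KO line 1 (-0.42, adjusted p = 0.0713).

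Signalling genes moved in both directions, with shares called near or below the 39.4% of all genes. These shares were 41.2% of Nodal and Bmp genes, 33.3% of Wnt targets and 38.9% of Fgf and Erk targets. Of 17 Nodal and Bmp genes 6 fell and 1 rose, with a median of -0.52, and 3 fell without WT line 1. The ligand gene Bmp4 had 5.41 and 14 CPM in the double KO lines, against 53.4 and 31.7 CPM in WT (-2.13 ± 0.42, adjusted p = 0.00169). Its target Msx2 fell by 1.67 ± 0.24, and Id4, a helix-loop-helix inhibitor gene, rose by 1.69 ± 0.29. Of 15 Wnt targets 4 fell and 1 rose; 1 fell without WT line 1 and 2 without double KO line 1. Cdx1 had 8.94 and 5.99 CPM in the double KO lines, against 68.5 and 45.4 CPM in WT (-2.93 ± 0.50, adjusted p = 0.000642). The Fgf and Erk target list had 3 of 18 higher and 4 lower, and 2 lower without double KO line 1 or WT line 2. The transcription factor genes Etv1 and Etv4 rose by 1.32 ± 0.23 and 1.49 ± 0.31, Etv4 being on chromosome 11. The feedback inhibitor gene Spry2 had 22.7 and 36.4 CPM, against 68.5 and 67.9 CPM in WT (-1.21 ± 0.22). The growth factor response gene Egr1 fell by 1.25 ± 0.31, and its call ended without double KO line 2 (-0.99, adjusted p = 0.053).

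Imprinted genes, which are expressed from 1 parental copy, had 6 of 34 higher and 10 lower, with a median of 0.09; 6 were lower without WT line 2. Of the imprinted list 47.1% were called, against 39.4% over all genes, of which 20.9% rose and 18.5% fell. The longest run of neighbours that fell at least 2-fold held 9 genes of the imprinted Meg3 cluster (chromosome 12, 109540996 to 110278068), with a median log2 fold change of -2.46. The run counts microRNA and other short genes of the locus. Within it the noncoding RNA genes Meg3, Rian and Mirg had 38.9 and 99.1, 51.8 and 117, and 2.29 and 7.05 CPM in the double KO lines. In the WT lines they had 178 and 289, 289 and 410, and 32.8 and 37.7 CPM. Each double KO line was below each WT line, and line 1 was the lower one. Their log2 fold changes were -1.76 ± 0.35, -2.05 ± 0.31 and -2.92 ± 0.42. In the Ehmt1 KO they were -0.90, -0.89 and -1.32 and in the Zic2 KO -0.64, -0.50 and -0.96. Igf2r, the receptor that clears Igf2, had 231 and 253 CPM in the double KO lines, against 74 and 92.5 CPM in WT (1.54 ± 0.13, adjusted p = 3.91e-06). Usp29 had 51.6 and 15 CPM, against 2.66 and 3.56 CPM in WT (3.42 ± 0.48, and 2.27 without double KO line 1). Meg3 and the run were singled out after their values were seen.

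Some changed genes lay next to each other along the chromosomes. Of 1994 placed genes that rose at least 2-fold, 934 (46.8%) had a neighbour among tested genes that did too, and of 1003 that fell, 281 (28%) did. There were 112 runs of 3 or more risen neighbours and 24 of fallen ones. Whether these shares exceed what chance placement gives was not tested. The longest risen run held 10 genes on chromosome X (8892353 to 10719702), with a median log2 fold change of 2.17. Runs singled out for their high medians were 7 neighbours in the Xlr cluster on chromosome X (6.04), 8 genes around the aldo-keto reductase cluster on chromosome 13 (5.33) and 5 keratin genes on chromosome 11 (5.11). A run of 6 on chromosome X held Magea3, Magea5, Magea6 and Magea8 (8.84). These runs too were named after their values were seen, and copies of a family that share reads can rise together. X-linked genes took 3 and 2.94% of all counts in the double KO lines, against 2.83 and 2.99% in the WT lines. Of 619 X-linked genes tested 47% were called, with 31.3% higher and 15.7% lower. Over all genes these shares were 39.4%, 20.9% and 18.5%. Xist, the noncoding RNA of X inactivation, had 4.26 and 9.83 CPM in the double KO lines, against 1.38 and 1.95 CPM in WT (2.08 ± 0.46, adjusted p = 0.00387, and 1.34 without double KO line 2).

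Targets of p53 were higher for 6 of 15 and not called for 9, with a median of 0.37. That is 40% called, against 39.4% over all genes, of which 20.9% rose and 18.5% fell. The cyclin gene Ccng1, on chromosome 11, had 837 and 935 CPM in the double KO lines, against 312 and 353 CPM in WT (1.41 ± 0.16, adjusted p = 4.02e-05). Mdm2, the ligase that degrades p53, had 276 and 283 CPM, against 138 and 154 CPM in WT (0.94 ± 0.12), and the kinase gene Plk2 rose by 1.84 ± 0.23. Cdkn1a, Bax and Bbc3 of the same list stood at 0.09, -0.25 and 0.30. Stress response genes went the other way, with 7 of 16 lower, 1 higher and a median of -0.48, and 4 lower without double KO line 1 or WT line 1. Atf4, the transcription factor of the integrated stress response, had 188 and 132 CPM in the double KO lines, against 385 and 393 CPM in WT (-1.28 ± 0.14, adjusted p = 2.25e-05). Its targets Trib3 and Chac1 fell by 1.87 ± 0.29 and 2.70 ± 0.58. In the stress list 8 genes were not called and 50% were, against 39.4% over all genes. Asns and Hspa5 of that list stood at -0.04 and 0.04. Of 19 interferon genes 6 fell and 1 rose (36.8% called, against 39.4% over all genes). The restriction factor gene Bst2 had 4.49 and 4.28 CPM, against 24.8 and 14.6 CPM in WT (-2.16 ± 0.33), and Stat2 fell by 1.01 ± 0.15. The riser was Mx1, on chromosome 16, with 0.734 and 1.02 CPM in the double KO lines and no read in the WT pair, at least 11.9-fold higher.

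Many genes of cholesterol synthesis fell. Of 20 measured, 11 fell and 1 rose, with a median of -0.63. That is 60% called, against 39.4% over all genes. Over all genes 18.5% fell, and 22.6% of those over 100 CPM. Fdps had 159 and 179 CPM in the double KO lines, against 334 and 323 CPM in WT (-0.96 ± 0.09, adjusted p = 7.26e-06), and Pmvk had 23.8 and 33.4 CPM, against 89.7 and 97.5 CPM in WT (-1.71 ± 0.15). Lss, Msmo1 and Mvd fell by 1.46 ± 0.18, 1.32 ± 0.18 and 1.51 ± 0.21. Of 17 glycolysis genes 5 rose and 2 fell; 2 rose without WT line 2, 3 without WT line 1 or double KO line 2, and 4 fell without double KO line 2. In the glycolysis list 41.2% were called, against 39.4% over all genes. The hexokinase gene Hk2 had 164 and 140 CPM, against 62.7 and 52 CPM in WT (1.40 ± 0.18). Pdk1, which shuts pyruvate dehydrogenase, had 102 and 81 CPM, against 267 and 265 CPM in WT (-1.55 ± 0.14). Ribosomal protein genes had 13 of 22 lower, and 7 without WT line 1. Called were 59.1% of the ribosomal list, against 39.4% over all genes. The list summed to 16100 and 15300 CPM in the double KO lines and 22500 and 18200 CPM in the WT lines. WT line 1 stood highest. From the 8 libraries in 2i 9 were lower, and from the 4 libraries alone the edgeR calls of this list ended, with a median of -0.33. Rpl4 fell by 0.43 ± 0.08 on the log2 scale, and by 0.31 without WT line 1 (adjusted p = 0.0985 from the 4 libraries alone). Of 18 oxidative phosphorylation genes 7 fell and 11 were not called (38.9% called, against 39.4% over all genes), with Cox7b at -0.57 ± 0.11. In this list 13 fell without WT line 2, and 1 fell from the 4 libraries alone, where Cox7b had an adjusted p of 0.0536.

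Lineage lists differed in their counts, beside 39.4% called over all genes. Called were 45.5% of trophoblast, 30% of primitive streak and mesoderm, 38.9% of primitive endoderm and 36.4% of neural genes. Of 11 trophoblast genes 1 rose and 4 fell (median -0.61), and of 10 primitive streak and mesoderm genes 3 fell and 7 were not called (median -1.03). Of the trophoblast list 1 fell without double KO line 1 and 2 without either WT line. Of the streak list 1 fell without double KO line 1 or either WT line and 5 without double KO line 2. Of 18 primitive endoderm genes 5 rose and 2 fell; 2 rose without WT line 1 and 3 without WT line 2 or double KO line 2. Hnf4a, a nuclear receptor gene of endoderm, had 8.02 and 10.7 CPM in the double KO lines, against 0.998 and 1.1 CPM in WT (3.15 ± 0.30), while Gata4, the transcription factor that defines that lineage, had 0.459 and 1.17 CPM, against 8.13 and 5.81 CPM in WT (-3.10 ± 0.48, adjusted p = 0.000322). Of 11 neural genes 2 rose and 2 fell. The filament gene Nes had 120 and 92.5 CPM, against 24.1 and 22.1 CPM in WT (2.20 ± 0.19), and the neuronal tubulin gene Tubb3 rose by 1.46 ± 0.15. The neural progenitor factors Sox1 (-3.88 ± 0.80) and Pax6 (-1.96 ± 0.38, and -3.02 without double KO line 2) fell. Of 18 clustered Hox genes, most of them under 1 CPM, 8 fell and 2 rose (55.6% called), with a median of -1.68. Without double KO line 1 or 2, 4 or 3 fell, and without either WT line 5 fell.

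The double KO was then set against each single KO directly. Against the Ehmt1 KO, 15 genes (0.0957%) were called, 7 higher (0.0447%) and 8 lower (0.0511%), and 1922 had an unadjusted p under 0.05. DESeq2 called 189. The number was 1 without double KO line 1, 287 without double KO line 2, 51 without Ehmt1 KO line 1 and 0 without Ehmt1 KO line 2, where 772 had an unadjusted p under 0.05. Against the Zic2 KO, 5358 genes (34.2%) were called, 2974 higher and 2384 lower, and 2945 and 3101 without Zic2 KO line 1 or 2. Against WT, 4214 genes (26.9%) were called in the Ehmt1 KO and 43 (0.274%) in the Zic2 KO; all 3 comparisons with WT share its libraries.

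Of the 15 genes that set the double KO apart from the Ehmt1 KO, 5 (Cdh3, Otx2, Acot11, Myb and Dpysl4) also passed the test in the Zic2 KO against WT and 10 did not; Dpysl4 was named after its value was seen. Cdh3, which encodes P-cadherin, had 72.2 and 51.1 CPM in the double KO lines, 21.3 and 24.3 CPM in the Ehmt1 KO lines, 69.5 and 62.5 CPM in the Zic2 KO lines and 28.6 and 26.6 CPM in the WT lines. The double KO exceeded the Ehmt1 KO by 1.43 ± 0.17 on the log2 scale (adjusted p = 0.00892). Otx2 had 20 and 22.1 CPM in the Ehmt1 KO lines and 4.71 and 5.95 CPM in the Zic2 KO lines, with the double KO between WT and Zic2 KO and below the Ehmt1 KO by a log2 value of -1.39 ± 0.17 (adjusted p = 0.00892). Acot11, an acyl-CoA thioesterase gene, had 7.38 and 8.08 CPM in the double KO lines, 2.84 and 2.22 CPM in the Ehmt1 KO lines, 14 and 14.7 CPM in the Zic2 KO lines and 6.51 and 7.46 CPM in the WT lines. Its double KO level was near WT, and the single KO lines lay on opposite sides. Myb, a transcription factor gene, had 6.79 and 8.9 CPM in the double KO lines, 16.6 and 19.7 CPM in the Ehmt1 KO lines, 13.7 and 11.5 CPM in the Zic2 KO lines and 23.8 and 26.9 CPM in the WT lines. It was lowest in the double KO (-1.21 ± 0.17 against the Ehmt1 KO, adjusted p = 0.0232).

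**Figure D5:**
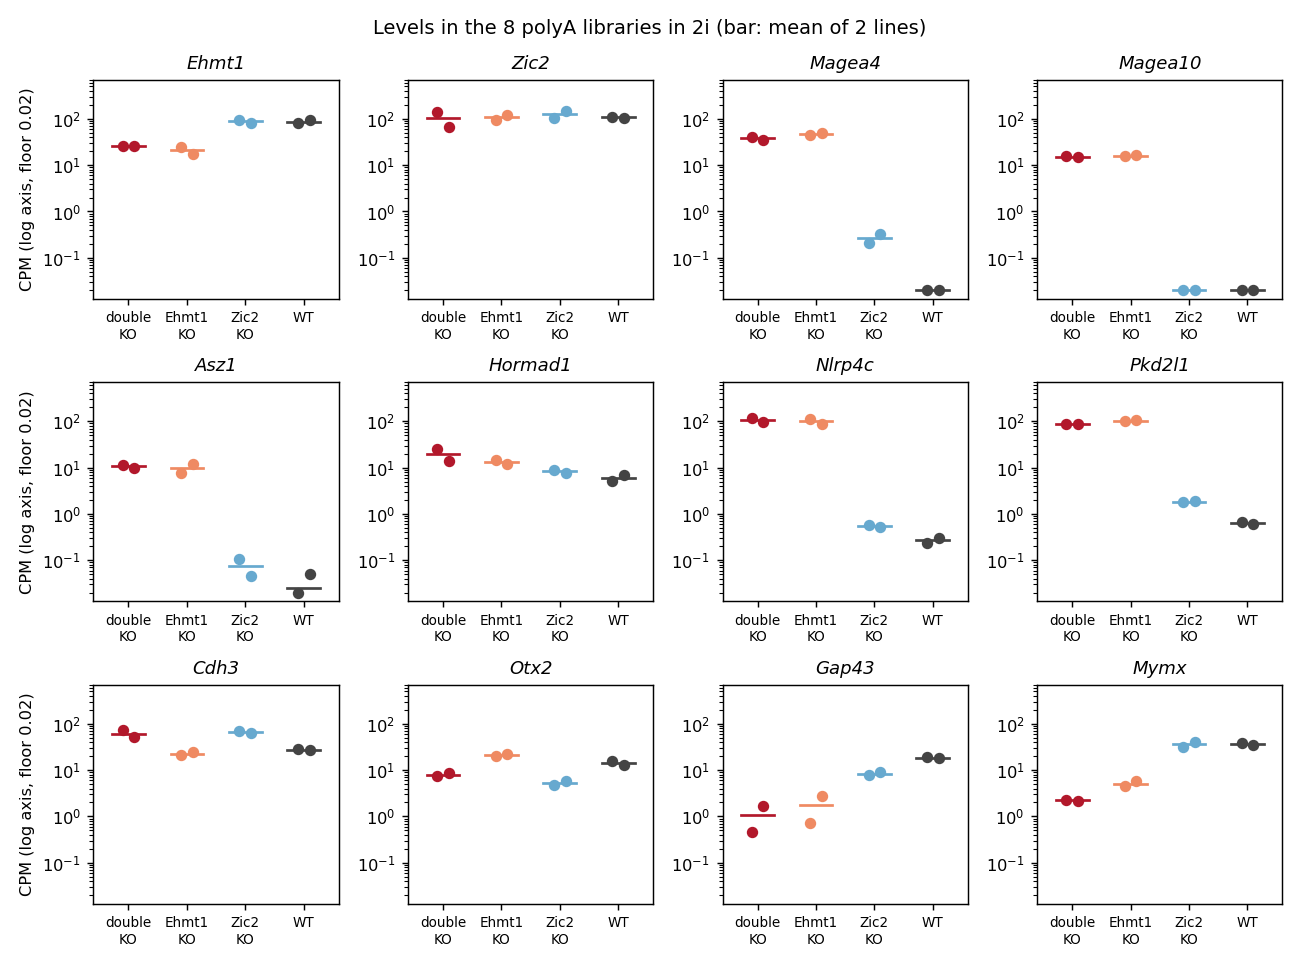
Level in CPM (log axis, values under 0.02 drawn at 0.02) of 12 genes in the 8 polyA libraries in 2i, with double KO, Ehmt1 KO, Zic2 KO and WT from left to right; points are lines and bars their mean. Magea4, Magea10, Asz1, Nlrp4c and Pkd2l1 are high in the double KO and Ehmt1 KO, whereas Cdh3 has its double KO values near those of the Zic2 KO and Otx2 has them between WT and the Zic2 KO.

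Against the Zic2 KO the clearest differences were in genes silent or low in it. Pkd2l1, a polycystin-family channel gene, had 86 and 89.2 CPM in the double KO lines, 1.83 and 1.86 CPM in the Zic2 KO lines and 0.665 and 0.601 CPM in the WT lines, 5.56 ± 0.13 above the Zic2 KO on the log2 scale (adjusted p = 4.63e-11). The NLR family gene Nlrp4c had 121 and 96.6 CPM in the double KO lines and 0.575 and 0.512 CPM in the Zic2 KO lines (7.63 ± 0.25). Tek, the angiopoietin receptor gene, had 94.2 and 87.8 CPM in the double KO lines and 3.92 and 4 CPM in the Zic2 KO lines (4.52 ± 0.18), and the X-linked EF-hand gene Efhc2 had 97.6 and 86.1 CPM and 0.314 and 0.698 CPM (7.46 ± 0.30). Both double KO lines lay above both Zic2 KO lines in these 4 genes.

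A test of additivity asked whether the double KO difference from WT equals the sum of both single KO differences. It called 2 genes (0.0128%), 1 in each direction (0.00638%), and 855 had an unadjusted p under 0.05; DESeq2 called 15. Loxl2, a lysyl oxidase gene, had 3.21 and 4.48 CPM in the double KO lines, 0.688 and 0.95 CPM in the Ehmt1 KO lines, 0.732 and 1.12 CPM in the Zic2 KO lines and 2.19 and 2.15 CPM in the WT lines. It was lower than WT in each single KO and above it in the double KO, and exceeded the sum by 3.45 ± 0.39 on the log2 scale (adjusted p = 0.0107). Its call against WT (0.82 ± 0.24, adjusted p = 0.0163) ended without WT line 1 (0.83, adjusted p = 0.0718), WT line 2 (0.83, adjusted p = 0.0571) or double KO line 2 (0.55, adjusted p = 0.124). Pkd2l1 fell short of the sum by a log2 value of -1.78 ± 0.21 (adjusted p = 0.0111). Without WT line 1, WT line 2 or Zic2 KO line 1 the count of calls was 0, where 875, 1355 and 614 genes had an unadjusted p under 0.05. It was 1 without Zic2 KO line 2 and 5 without double KO line 2.

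The double KO difference from WT was compared between 32 h after 2i withdrawal and 2i. At 32 h, 6129 genes (39.1%) were called. The difference itself changed for 829 genes (5.29%), with 483 (3.08%) more positive and 346 (2.21%) more negative at 32 h. With the line as a block, since the same lines were sampled at both stages, it differed for 2611. Of 20 naive genes 13 differed. Esrrb, not called in 2i, had 215 and 246 CPM in the double KO lines at 32 h, against 40.6 and 42.4 CPM in the WT lines, and its effect was 2.76 ± 0.19 higher than in 2i on the log2 scale (adjusted p = 3.08e-05). Klf4 had 23 and 25.7 CPM, against 2.37 and 3.03 CPM in WT at 32 h (2.67 ± 0.25, adjusted p = 0.000237). Tet3 and Usp29, raised in 2i, had effects 2.33 ± 0.31 and 4.07 ± 0.63 lower at 32 h. Tet3 then had 28.9 and 28 CPM in the double KO lines and 34.4 and 29.7 CPM in the WT lines. The number of genes that differed was 348 without WT line 1 in 2i, 1334 without WT line 2 in 2i, 280 and 304 without WT line 1 or 2 at 32 h, and 527 without double KO line 1 at 32 h.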

How the data were processed

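Gene expression was measured by mRNA sequencing. The deposited values are raw, unnormalised counts for 24116 genes, identified by Entrez ID. The submitters' processing notes name the build GRCm38 (mm10) and the tool edgeR; no source used here gives the aligner, the counter or the strand setting. Counts of overlapping, antisense and multi-copy genes are therefore uncertain. Symbols and coordinates came from the RefSeq table of GRCm38.p6.

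A single edgeR 4.0.16 model covered the 16 polyA libraries (8 groups of 2), which share an estimate of the spread. Low genes were removed with filterByExpr at 10 reads (total 15), libraries were scaled by TMM, and comparisons used the robust quasi-likelihood test. P-values were adjusted by Benjamini-Hochberg over 15667 genes, and those under 0.05 were called; an adjusted p with no tool beside it is from this model. Each ± is a standard error obtained from the F statistic. With 2 lines per group, p-values rest on the spread within groups pooled over all 16 libraries, not on that of the lines compared alone. Libraries of a line in 2i and at 32 h counted as independent in this fit, though limma put the correlation within lines at 0.372. Intervals and floors cover counting error only. The procedure was tested on simulated counts, where 9.57% of calls were false, above the nominal rate. Of 100 genes changed 2-fold 74% were recovered, and of 100 changed 4-fold 96%. The simulation held no line effects and gave the double KO no chromosome shift.

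The members and gene lists were chosen with earlier results of these data known. Genes could be named if targeted, if among the 12 largest called changes per direction with at least 5 CPM and no overlap of groups (predicted and multi-copy families set aside), if among the 5 called members of a list with the smallest p, if in a pluripotency, germline, silencing or X inactivation list, or if among the 5 clearest differences between KO groups; those described were picked among them after their values were seen, and some genes the rule allows are not reported here. Promoter windows were found for 78.1% of genes tested, so a comparison of motif shares between called and other genes is void and was not made. Alternatives used DESeq2 1.42.0 and limma 3.58.1 under R 4.3.3.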

Additional observations from a re-analysis of the deposited data

Results flagged for a closer look

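The double KO difference from WT differed between 32 h and 2i for 829 genes by the interaction test, and among the genes named here the differences, as 32 h minus 2i on the log2 scale, were as follows.

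Naive genes had more positive effects at 32 h, with 2.76 for Esrrb, 2.67 for Klf4, 2.58 for Prdm14, 2.12 for Zfp42, 2.03 for Nanog, 1.94 for Jam2, 1.41 for Fbxo15 and 1.08 for Nr5a2. Genes that were lower in 2i and less so, or no longer, at 32 h included Mymx (3.31), Bmp4 (2.41), Msx2 (2.28), Ddx58 (1.68), Eomes (1.41), Pdk1 (0.99) and Gdf3 (0.68). Egr1 (2.55) was lower in 2i and higher at 32 h, with log2 fold changes of -1.25 and 1.30. More negative effects at 32 h were found for genes that were higher in 2i: Usp29 (-4.07), Pim2 (-3.19), Tek (-2.63), Tet3 (-2.33), Efhc2 (-2.26), Grhl2 (-2.17) and Nlrp4c (-2.05). Smaller ones were found for Hk2 (-1.70), Tuba3a (-1.58), Dnmt3b (-1.47), Etv1 (-1.39), Plk2 (-1.19), Nes (-1.10) and Igf2r (-1.08). Among these, Pim2 and Dnmt3b were called lower than WT at 32 h. Pim2 had log2 fold changes of 1.59 in 2i and -1.60 at 32 h, and Dnmt3b 0.69 and -0.78.

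By the additivity test, the effect of the KO labelled Zic2 differed with and without Ehmt1 for Loxl2 (3.45) and Pkd2l1 (-1.78). No group had enough libraries for a test of single outlying values.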

How the results depend on the processing

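The count of 6166 genes called in the double KO against WT stayed within 1.5 times of that value under other scaling, filters, DESeq2, limma-voom with the line as a random block, the 8 libraries in 2i and the removal of chromosomes 11 and 16 (5564, chosen after seeing the data). It was 3386 from the 4 libraries alone and 3004 with a 2-fold change required. Leaving out 1 library gave 3855 to 5835 (double KO against WT), 0 to 287 (against the Ehmt1 KO), 2945 to 4811 (against the Zic2 KO), 0 to 5 (additivity) and 280 to 1334 (stage). The count against the Ehmt1 KO was 7 with DESeq2's size factors, 36 with no filter and 189 with DESeq2. DESeq2 gave 15 for additivity and 1358 for the stage difference. With the line as replicate block the stage difference had 2611 calls; same-numbered lines deviated together between stages with correlations of 0.577 (double KO) and 0.064 (WT). No paired fit of double KO against WT was possible, since the lines differ.

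Of 156 genes followed through the alternatives, 111 kept their direction and call in each of them. Zic2 turned to 0.38 without double KO line 2 and stood at -0.69 without double KO line 1. The cause was not tested. With 2 lines per group a change seen in 1 line only has little support, and genes under about 1 CPM rest on few reads.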
